A study of Homo sapiens with 17 samples.

Results

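The genes described here encode the subunits of the proteasome. They were chosen by name, as the protein-coding genes whose symbol is PSMA, PSMB, PSMC or PSMD with a number or PSME1 to PSME4, without *PSMB8* and *PSMB9*, and averaging 10 or more normalized counts across all libraries. Of the 60664 genes in the table, 43 had such a name. The rule left out *PSMB8* and *PSMB9*, and 2 others fell below the minimum, *PSMA8* (listed at 0) and *PSMB11* (mean 0.487). The remaining 39 genes were all tested, among 15599 genes that met the same minimum, and the lowest of them was *PSMB10* with a mean of 16.5. By their place in the complex they fall into 7 alpha and 8 beta subunits of the core, 6 ATPases, 3 further subunits of the base (*PSMD1*, *PSMD2*, *PSMD4*), 8 subunits of the lid, 3 chaperones that assemble the base (*PSMD5*, *PSMD9*, *PSMD10*) and 4 activators.

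RNA-Seq counts sequenced RNA fragments per gene. The cells were SF8628, an established line with the histone mutation H3K27M from a diffuse intrinsic pontine glioma. Every library came from this line, grown as monolayers in medium with serum. Treatment was with the vehicle DMSO or with AZD5153, a small molecule that blocks the bromodomains of BET proteins, at 1 μM for 24 or 48 h. The 4 groups of 3 libraries compare drug with vehicle at each time and 48 with 24 h in each treatment. The labels do not say whether replicates were separate cultures, so each p-value measures the spread between these libraries, which may be technical.

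The proteasome degrades proteins tagged with ubiquitin. Its core is a barrel of stacked rings, alpha subunits at the ends forming the gate and beta subunits in the middle holding the proteolytic sites. The regulatory particle caps the barrel, where ATPases of the base unfold the substrate, other base subunits bind ubiquitin or its carriers, and the lid removes the ubiquitin chain. Cells can also cap the core with activators that need no ATP, and can swap catalytic beta subunits for inducible ones, the immunoproteasome. Because the subunits act in fixed proportions, their genes are known to be switched on together by the transcription factor NFE2L1 when proteasome activity falls short.

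Reads on genes numbered 15759148 to 27335220 per library. Replicate libraries differed by 2.12 to 25.6 times the sampling noise (chi-square per degree of freedom), and the library that stood furthest apart was replicate 1 of DMSO at 24 h. *HEXIM1*, which is known to rise when BET proteins are inhibited, ran from 2302 to 2734 normalized counts in the DMSO libraries and from 9881 to 11313 in the AZD5153 libraries, so no library went against its label. Of the markers used to check the line, *VIM* (mean 18049), *CD44* (6404), *NES* (1336) and *SOX2* (191) were present, *GFAP* (35.0) and *S100B* (64.4) were low, *PDGFRA* had a mean of 2.66 and *OLIG2* was at 0 in all 12 libraries. *NES* ran from 1872 to 2205 in the DMSO libraries and from 527 to 761 in the AZD5153 libraries. *SOX2* was also lower with AZD5153, at 119 to 152 against 192 to 209 at 24 h (log2 fold change -0.60, adjusted p = 0.000536) and at 177 to 215 against 219 to 252 at 48 h (-0.30, adjusted p = 0.0436). *CD44* went the other way, higher at 24 h (0.17, adjusted p = 0.00351) and at 48 h (0.53, adjusted p = 2.64e-08). *VIM* was lower at 24 h (-0.28, adjusted p = 0.0183) and not called at 48 h (0.01). Among markers of other cells, *CD3E* and *KRT5* were at 0, *PTPRC*, *ALB*, *RBFOX3*, *EPCAM* and *CD14* had means of 1.20 to 13.7, and the endothelial marker *PECAM1* had 275 to 565 in the DMSO libraries and 27.2 to 49.6 in the AZD5153 libraries. The part of these markers in the results was not tested.

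At 24 h the subunit genes split in both directions. *PSME4*, which encodes the activator PA200, was 2.20 times as high with AZD5153, and the lid gene *PSMD3* and the base gene *PSMD2* were 1.88 and 1.62 times as high. The ATPase gene *PSMC3* and the lid gene *PSMD7* fell to 0.527 and 0.548 times the DMSO level. By limma, 10 of the 39 members were higher and 8 lower, which is 25.6% and 20.5%, where 33.9% of all genes tested were called higher and 34.6% lower, 68.5% in all (Benjamini-Hochberg adjusted p under 0.05, here called). Fold changes are on the scale of log2(normalized count + 1), and each SE comes from 1 fit over the 4 groups. The median log2 fold change of the members was -0.05, and that of all genes was 0. In these bulk samples, fewer cells with a transcript and less of it per cell cannot be told apart.

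At 48 h the balance lay toward higher values. The test called 20 members higher (51.3%, against 33.1% of all genes) and 7 lower (17.9%, against 33.9%), and the median log2 fold change was 0.17 against 0.00 over all genes. Calls are more frequent among genes with more reads. With a minimum mean of 100, 4428 of 10961 genes were higher and 3877 lower, and 21 of 35 members were higher. *PSME4* reached 2.71 times and *PSMD2* 2.33 times the DMSO level. Higher at both times were 10 members (25.6%, near the 26% of all genes called higher at both), namely *PSMA5*, *PSMA7*, *PSMB1*, *PSMC5*, *PSMD1*, *PSMD2*, *PSMD3*, *PSMD4*, *PSMD6* and *PSME4*. Lower at both were 4 (10.3%, against 27.1% of all genes), namely *PSMB2*, *PSMB5*, *PSMC3* and *PSMD7*. With both times in 1 contrast 16 members were higher and 11 lower, where 75.8% of all genes were called. With the deposited scaling and all 12 libraries, no member was called in opposite directions, against 1.62% of all genes. Called at neither time were 8 (20.5%, near the 19.2% of all genes), namely *PSMA1*, *PSMA3*, *PSMA6*, *PSMC1*, *PSMD8*, *PSMD9*, *PSMD14* and *PSME1*.

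These counts depend on how libraries are scaled to each other. Scaling to equal totals lowered the median of all genes by 0.12 at 24 h and by 0.17 at 48 h, and it gave 6 members higher and 18 lower at 24 h and 13 higher and 12 lower at 48 h. At 24 h, scaling to 7 stably expressed genes gave 8 higher and 11 lower, and quantile normalization gave 8 higher and 10 lower. Of all genes tested, the former gave 4827 higher and 5632 lower at 24 h, and the latter 5696 higher and 4973 lower. With equal totals, 4340 of all genes tested were higher and 6293 lower at 24 h, and 3896 were higher and 6511 lower at 48 h. The calls gained with equal totals were all lower ones, of *PSMA3*, *PSMB3*, *PSMC1*, *PSMC4*, *PSMC6*, *PSMD10*, *PSMD12*, *PSMD13*, *PSMD14* and *PSME2* at 24 h and of *PSMB6*, *PSMB7*, *PSMC1*, *PSMD14* and *PSME1* at 48 h. The calls lost were all higher ones, of *PSMA5*, *PSMC5*, *PSMD1* and *PSMD6* at 24 h and of *PSMA5*, *PSMB3*, *PSMC2*, *PSMC4*, *PSMC6*, *PSMD10* and *PSMD13* at 48 h. Calls in opposite directions also appeared. With equal totals *PSMD12* was called lower at 24 h (-0.18) and higher at 48 h. With 7 stably expressed genes *PSMC4* (-0.15) and *PSMD10* (-0.18) were called lower at 24 h and higher at 48 h. The same held for *PSMC4* without replicate 1 of DMSO at 24 h (-0.13) and for *PSMD10* without replicate 3 of AZD5153 at 24 h (-0.21). Over the 24 alternative settings, 6 of the 10 higher calls at 24 h held throughout (*PSMA7*, *PSMB1*, *PSMD2*, *PSMD3*, *PSMD4* and *PSME4*), as did all 8 lower ones. At 48 h 13 of the 20 higher calls held in every setting, and so did the lower calls of *PSMB2*, *PSMC3* and *PSMD7* and, where it met the minimum, of *PSMB10*.

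**Figure D1:**
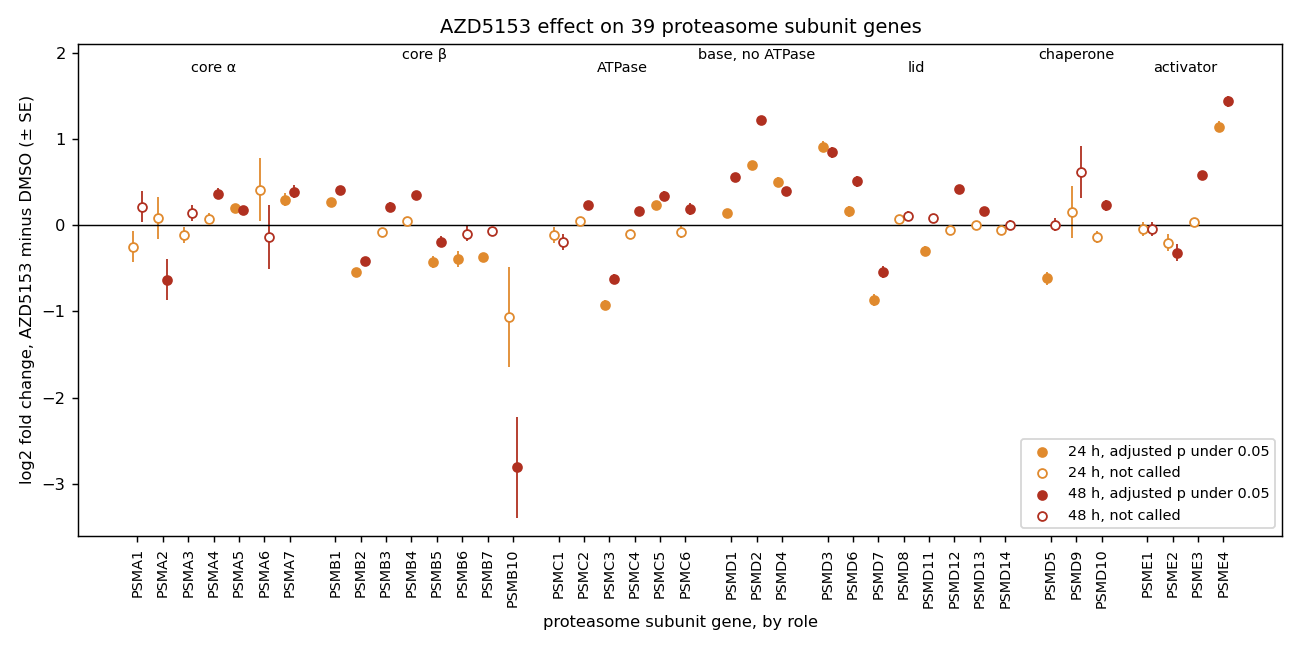
Log2 fold change of AZD5153 against DMSO (vertical axis, ± SE of the limma fit, n = 3 libraries per group) for the 39 members, ordered by role on the horizontal axis. Filled points passed the adjusted threshold and open points did not. *PSME4*, *PSMD2* and *PSMD3* are the highest at both times, *PSMC3* and *PSMD7* are low at both, and *PSMB10* reaches -2.81 at 48 h with a long error bar.

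The promoters of the 3 highest and the 3 lowest members over both times, *PSMB10* with its few reads left aside, are given here so that the sequences can be set beside the values. They were chosen after the values were seen. Each is the stretch of up to 250 bases before the start listed by RefSeq on GRCh38, ending before the GENCODE 44 gene begins, and capitals mark matches to 5 motifs searched on both strands. The first 3 belong to genes that were higher with AZD5153.
PSME4 (chr2:53970994-53971243, minus strand): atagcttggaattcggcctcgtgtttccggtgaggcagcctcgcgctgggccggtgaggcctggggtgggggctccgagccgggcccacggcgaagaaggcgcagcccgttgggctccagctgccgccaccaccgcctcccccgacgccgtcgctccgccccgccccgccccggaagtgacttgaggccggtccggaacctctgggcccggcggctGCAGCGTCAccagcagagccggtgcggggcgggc
PSMD2 (chr3:184298991-184299197, plus strand): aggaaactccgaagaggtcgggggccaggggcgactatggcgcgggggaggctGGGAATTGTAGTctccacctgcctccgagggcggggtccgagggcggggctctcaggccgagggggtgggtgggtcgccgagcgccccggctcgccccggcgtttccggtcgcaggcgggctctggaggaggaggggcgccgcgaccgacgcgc
PSMD3 (chr17:39980557-39980806, plus strand): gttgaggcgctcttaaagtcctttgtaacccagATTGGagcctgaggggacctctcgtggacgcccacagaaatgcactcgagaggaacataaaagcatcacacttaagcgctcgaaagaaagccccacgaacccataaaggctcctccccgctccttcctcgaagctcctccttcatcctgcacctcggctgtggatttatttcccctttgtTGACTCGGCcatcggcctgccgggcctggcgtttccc
The next 3 belong to genes that were lower.
PSMC3 (chr11:47426474-47426689, minus strand): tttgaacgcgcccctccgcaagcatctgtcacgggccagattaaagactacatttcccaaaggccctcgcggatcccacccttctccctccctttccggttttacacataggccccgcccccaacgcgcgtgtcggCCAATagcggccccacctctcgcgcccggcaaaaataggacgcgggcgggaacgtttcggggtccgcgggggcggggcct
PSMD7 (chr16:74296564-74296813, plus strand): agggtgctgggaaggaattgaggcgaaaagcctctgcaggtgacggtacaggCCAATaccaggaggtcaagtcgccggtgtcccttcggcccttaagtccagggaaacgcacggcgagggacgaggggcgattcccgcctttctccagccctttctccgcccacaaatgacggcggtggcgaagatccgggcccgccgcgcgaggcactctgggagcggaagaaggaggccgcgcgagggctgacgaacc
PSMB2 (chr1:35641527-35641776, minus strand): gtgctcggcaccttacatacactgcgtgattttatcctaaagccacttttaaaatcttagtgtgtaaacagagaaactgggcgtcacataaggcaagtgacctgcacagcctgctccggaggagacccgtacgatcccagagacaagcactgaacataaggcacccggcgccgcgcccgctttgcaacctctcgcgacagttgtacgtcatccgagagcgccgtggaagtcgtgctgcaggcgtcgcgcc

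The capitals in *PSME4* are the reverse complement of TGACNNNGC, the core of the antioxidant response element through which NFE2L1 and its relatives act. *PSMD2* carries the core motif of the factor ZNF143 on its reverse strand. *PSMD3* has an inverted CCAAT box and the antioxidant core, *PSMC3* and *PSMD7* have a CCAAT box each, and none of the 5 motifs is in the *PSMB2* window. The motifs were counted in the whole 250 bases before the RefSeq start, for members and for all promoters alike, also where that window runs into the GENCODE gene. Over all members with a promoter in the table (34 of 39), the antioxidant core was found in 8 (23.5%, against 11% of 27305 promoters), in *PSME1*, *PSME2*, *PSME4*, *PSMD3*, *PSMD5*, *PSMD9*, *PSMD12* and *PSMB3*. CCAAT was found in 15 (44.1%, against 33%), the ZNF143 core in 3 (8.82%, against 0.978%; *PSMD2*, *PSMD10* and *PSMD11*), the core for nuclear respiratory factor 1 in 3 (8.82%, against 7.58%), and TGACGTCA, the cAMP response element, in 0 (against 1.77%). For 24 of the 34 members part of the window lies inside the GENCODE gene, and for 7 of them all of it. In the bases before that gene, the antioxidant core was found in 7 members (not *PSME2*), CCAAT in 11, the ZNF143 core in 2 (not *PSMD11*) and the core for nuclear respiratory factor 1 in 1 (*PSMB4*), and no share over all promoters was computed for that shorter stretch. A match describes these letters only.

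**Figure D2:**
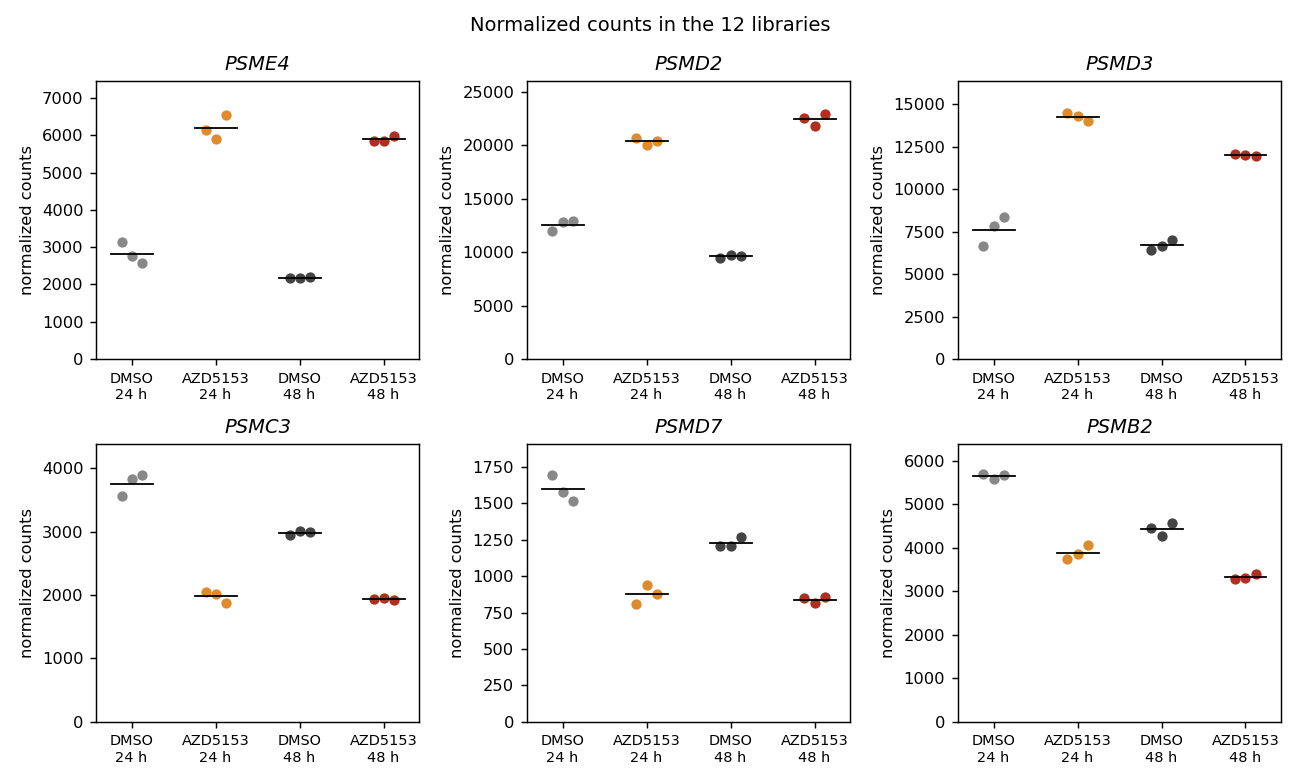
Normalized counts (vertical axis, from 0) of 6 members in the 12 libraries, with 1 point per library and a line at the group mean. In the upper row every AZD5153 library lies above every DMSO library of its time, and in the lower row every AZD5153 library lies below.

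The alpha subunits build the outer rings of the core. *PSMA7* (ENSG00000101182, chr20:62136733-62143440) had 3452, 3901 and 4295 normalized counts in DMSO and 5001, 4887 and 4377 in AZD5153 at 24 h. At 48 h its DMSO libraries had 3384, 3332 and 3525, and the AZD5153 libraries 4558, 4577 and 4278. The groups did not overlap at either time. The effect on the log2 scale was 0.30 (SE 0.071, adjusted p = 0.00164) at 24 h and 0.39 (adjusted p = 0.000152) at 48 h, the highest of the alpha genes over both times. *PSMA5* rose by a similar amount at each time (0.20 and 0.17), though both calls were lost under scaling to equal totals and the later one also under quantile normalization (0.05), and *PSMA4* rose at 48 h (0.36, adjusted p = 0.000116).

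*PSMA2* (ENSG00000106588, chr7:42916828-42932185) was the lowest alpha gene over both times and rested on few reads. It had 60.9, 66.2 and 74.9 normalized counts in DMSO and 57.7, 61.4 and 102 in AZD5153 at 24 h, where the groups overlapped. By 48 h *PSMA2* had 81.1, 78.0 and 70.2 in DMSO and 37.4, 65.2 and 47.9 in AZD5153, with every treated library below every control. The fold change at 48 h (log2 -0.63, SE 0.240, adjusted p = 0.0296) was no longer called without replicate 1 or 2 of DMSO or replicate 1 or 3 of AZD5153 at that time, with log2 fold changes from -0.44 to -0.62. The call was also lost under quantile normalization (-0.26, adjusted p = 0.355) and with no minimum mean. *PSMA1*, *PSMA3* and *PSMA6* were called at neither time, and *PSMA6* had between 18 and 57 reads per library. Under quantile normalization *PSMA1* was called higher at 48 h (0.47, adjusted p = 0.0357, where the value was 0.21 before). Calls were gained without a single library, at 24 h for *PSMA1* without replicate 3 of DMSO (-0.44) and for *PSMA4* (0.15) and *PSMA6* (0.82) without replicate 1 of DMSO, and at 48 h for *PSMA3* (0.14) without replicate 1 of DMSO at 24 h, which the fit uses for its spread.

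Of the 8 beta genes, 4 were lower at 24 h (50%, against 34.6% of all genes) and 1 was higher (12.5%, against 33.9%), with a median log2 fold change of -0.38. At 48 h 3 were higher and 3 lower (37.5% each, near the 33.1% and 33.9% of all genes), with a median of -0.09. The 3 standard catalytic subunits were all lower at 24 h. *PSMB5* (ENSG00000100804, chr14:23016543-23035230), which carries the chymotrypsin-like site and is the main target of proteasome inhibitor drugs, had 2110, 2323 and 2330 normalized counts in DMSO and 1773, 1725 and 1529 in AZD5153 at 24 h. At 48 h the values were 1931, 2066 and 1871 in DMSO and 1753, 1628 and 1760 in AZD5153. Treated libraries were below the controls at both times. The log2 fold change was -0.43 (SE 0.068, adjusted p = 3.59e-05) and then -0.19 (adjusted p = 0.0205), and the later call was lost without replicate 2 of DMSO (-0.15) or replicate 2 of AZD5153 at 48 h (-0.15) and under scaling to 7 stably expressed genes (-0.16).

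*PSMB6* (ENSG00000142507, chr17:4796144-4798502), with the caspase-like site, had 1447, 1372 and 1367 normalized counts in DMSO against 1130, 1158 and 913 in AZD5153 at 24 h. By 48 h it had 1081, 1168 and 988 against 1004, 944 and 1072, and the groups overlapped. The fold changes were -0.39 (SE 0.089, adjusted p = 0.00101) and -0.10 (adjusted p = 0.342). *PSMB7* (ENSG00000136930, chr9:124353465-124415444), with the trypsin-like site, showed 4868, 5210 and 5460 in DMSO against 4044, 4020 and 3927 in AZD5153 at 24 h. Its 48-hour libraries had 5053, 4667 and 5276 against 4825, 4749 and 4663, again overlapping. The fold changes of *PSMB7* were -0.37 (SE 0.054, adjusted p = 1.42e-05) and -0.07 (adjusted p = 0.24), and the effect differed between the times by 0.30 (adjusted p = 0.00944), a call lost under quantile normalization (0.15). At 48 h *PSMB7* was called lower with equal totals (-0.24) and under quantile normalization (-0.25). For *PSMB6* the difference between times was of like size (0.30) but was not called (adjusted p = 0.101).

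The structural beta genes lay on both sides. *PSMB1* (ENSG00000008018, chr6:170535120-170553307) had 4267, 3917 and 4112 normalized counts in DMSO and 5043, 5077 and 4676 in AZD5153 at 24 h. At 48 h it had 3528, 3623 and 3632 in DMSO and 4882, 4608 and 4773 in AZD5153. All treated libraries exceeded all controls, with log2 fold changes of 0.27 (SE 0.049, adjusted p = 0.00017) and 0.40 (adjusted p = 2.32e-06). *PSMB2* (ENSG00000126067, chr1:35599541-35641526) was chosen for its promoter after its values were seen and went the other way, with 5691, 5593 and 5669 in DMSO against 3738, 3856 and 4070 in AZD5153 at 24 h. It had 4457, 4280 and 4560 against 3282, 3307 and 3389 at 48 h. The fold changes of *PSMB2* were -0.54 (SE 0.046, adjusted p = 3.38e-08) and -0.41 (adjusted p = 7.69e-07). *PSMB3* and *PSMB4* were called only at 48 h (0.22 and 0.35), where both were higher, and the *PSMB3* call did not hold with equal totals or quantile normalization (0.04 with each). Under these scalings *PSMB3* was instead called lower at 24 h, at -0.21 with equal totals and -0.12 under quantile normalization.

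*PSMB10* (ENSG00000205220, chr16:67934506-67936864), the inducible counterpart of *PSMB7* in the immunoproteasome, was the member with the fewest reads and the lowest fold change. At 24 h it had 4.51, 24.2 and 23.2 normalized counts in DMSO and 6.70, 9.22 and 3.67 in AZD5153. The 48-hour counts were 41.4, 49.7 and 21.6 in DMSO and 6.38, 4.35 and 2.57 in AZD5153, which were 3 to 7 reads per treated library. The groups overlapped at 24 h because of replicate 1 of DMSO and did not overlap at 48 h. Its fold change was -2.81 on the log2 scale at 48 h (SE 0.582, adjusted p = 0.000482). At 24 h it was -1.06 and not called (adjusted p = 0.117), but it was called by edgeR (-1.40) and DESeq2 (-1.41) and by limma without replicate 1 of DMSO (-1.79, adjusted p = 0.00372). The inducible genes left out by the rule were lower at both times, *PSMB8* with means of 548 in DMSO and 130 in AZD5153 at 24 h and 600 and 85.5 at 48 h, and *PSMB9* with 326 and 229, then 358 and 178.

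The ATPases form the ring that pulls the substrate into the core, and 1 of the 6 stood apart from the others. *PSMC3* (ENSG00000165916, chr11:47418769-47426473) had 3566, 3829 and 3891 normalized counts in DMSO and 2046, 2019 and 1881 in AZD5153 at 24 h. The 48-hour values were 2945, 3013 and 2994 in DMSO and 1945, 1948 and 1923 in AZD5153. Neither time showed any overlap, and the treated level was nearly the same at both. The log2 fold change was -0.92 (SE 0.051, adjusted p = 1.88e-10) and then -0.62 (adjusted p = 2.21e-08). *PSMC5* (ENSG00000087191, chr17:63827152-63832026), with 13.7% of its exon bases under *FTSJ3* on the opposite strand, was the highest ATPase gene over both times. Its counts in DMSO were 4028, 3579 and 3955 at 24 h and 3091, 3246 and 3349 at 48 h, and in AZD5153 they were 4561, 4573 and 4411 and then 4094, 4102 and 4055. It was higher in every treated library, by 0.23 (SE 0.052, adjusted p = 0.000954) and 0.34 (adjusted p = 2.49e-05) on the log2 scale, and the 24-hour call did not hold with equal totals (0.11). *PSMC2*, *PSMC4* and *PSMC6* rose at 48 h by 0.16 to 0.23. These calls were lost under scaling to equal totals, where *PSMC4* was at -0.01, and under quantile normalization, and *PSMC6* also lost its call without replicate 1 (0.15) or 2 (0.17) of AZD5153 or replicate 2 of DMSO (0.14) at 48 h. *PSMC4* was at -0.10 at 24 h and was called lower there under each of the other scalings (-0.12 to -0.22) and without replicate 1 of DMSO (-0.13). *PSMC1* was not called at either time (-0.12 and -0.19). Without replicate 1 of DMSO at 24 h it was called lower at both (-0.22 and -0.19), and without replicate 2 at 48 h only (adjusted p = 0.0495).

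The base subunits without ATPase activity are the scaffolds *PSMD1* and *PSMD2* and the ubiquitin receptor *PSMD4*. All 3 were called higher at both times, against 26% of all genes. Their median log2 fold change was 0.51 at 24 h and 0.56 at 48 h. *PSMD2* (ENSG00000175166, chr3:184299198-184309050) was the member with the most reads. Its normalized counts rose from 11988, 12822 and 12897 in DMSO to 20667, 20015 and 20353 in AZD5153 at 24 h. At 48 h they rose from 9485, 9712 and 9648 to 22552, 21749 and 22953. The groups lay far apart at both times. The log2 fold change was 0.70 (SE 0.041, adjusted p = 4.09e-10) and then 1.22 (adjusted p = 5.98e-13), and the effect was higher at 48 h by 0.53 (adjusted p = 1.3e-05).

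*PSMD1* (ENSG00000173692, chr2:231056845-231173116) had 6966, 7025 and 6840 normalized counts in DMSO and 7778, 7376 and 7908 in AZD5153 at 24 h. At 48 h it had 4996, 4890 and 5149 in DMSO and 7510, 7274 and 7340 in AZD5153. The treated level was similar at the 2 times while the DMSO level was lower at 48 h in all 3 libraries. The log2 fold change was 0.15 (SE 0.042, adjusted p = 0.00616) and then 0.56 (adjusted p = 8.93e-09). The 24-hour call of *PSMD1* was lost with scaling to equal totals (0.02), to 7 stably expressed genes (0.10) and under quantile normalization (0.08). *PSMD4* rose by 0.51 and 0.39, and its effect was not called different between the times.

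The lid held both a strongly raised and a strongly lowered gene. *PSMD3* (ENSG00000108344, chr17:39980807-39997959), a scaffold subunit, had 6660, 7847 and 8372 normalized counts in DMSO and 14484, 14304 and 14037 in AZD5153 at 24 h. At 48 h it had 6435, 6650 and 7006 in DMSO and 12065, 12009 and 11969 in AZD5153. Treated libraries were above the controls by a wide margin, with log2 fold changes of 0.91 (SE 0.064, adjusted p = 3.75e-09) and 0.84 (adjusted p = 9.52e-09). *PSMD7* (ENSG00000103035, chr16:74296814-74306288) encodes the partner of the deubiquitinase subunit PSMD14. It had 1692, 1580 and 1516 in DMSO and 807, 940 and 876 in AZD5153 at 24 h, and 1206, 1206 and 1271 against 848, 814 and 857 at 48 h. The fold changes of *PSMD7* were -0.87 (SE 0.068, adjusted p = 1.26e-08) and -0.55 (adjusted p = 2.74e-06). A lncRNA gene on the opposite strand covers 51.6% of its exon bases and had a mean of 82.8 normalized counts, against 1134 for *PSMD7*.

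Of the other lid genes, *PSMD12* (ENSG00000197170, chr17:67337916-67366605) had 5940, 5428 and 5272 normalized counts in DMSO and 5190, 5246 and 5532 in AZD5153 at 24 h, which overlapped. At 48 h it had 3532, 3566 and 3538 in DMSO and 4746, 4655 and 4800 in AZD5153. The effect went from -0.06 (adjusted p = 0.308) to 0.42 (SE 0.049, adjusted p = 1.62e-06). *PSMD11* was lower at 24 h (-0.30, adjusted p = 6.53e-05) and not called at 48 h (0.08). *PSMD6* was higher at both times (0.16 and 0.51), but its 24-hour groups overlapped and the 24-hour call was lost without replicate 2 (0.14) or 3 (0.12) of DMSO or replicate 1 (0.14) or 3 (0.13) of AZD5153, and under each other scaling (0.04 with equal totals, 0.11 with 7 stably expressed genes and 0.13 under quantile normalization). *PSMD13* was higher at 48 h (0.16) but at -0.01 under scaling to equal totals and -0.02 under quantile normalization, and its call was also lost without replicate 3 of DMSO (0.14) or replicate 2 of AZD5153 (0.13). *PSMD8* and *PSMD14*, the deubiquitinase itself, were not called at either time, with *PSMD14* at -0.06 and 0.00. *PSMD14* was called lower with equal totals at 24 h (-0.18) and 48 h (-0.17) and under quantile normalization at 48 h (-0.14). *PSMD8*, at 0.11 at 48 h, was called higher there without replicate 1 or 3 of DMSO at 24 h or replicate 2 of AZD5153 at 48 h (0.15).

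Among the chaperones, which guide assembly of the base and leave the finished complex, *PSMD5* (ENSG00000095261, chr9:120815496-120842951) was affected at the early time only. It had 1789, 1619 and 1488 normalized counts in DMSO and 1015, 1015 and 1162 in AZD5153 at 24 h, and 1265, 1252 and 1204 against 1189, 1277 and 1265 at 48 h. The groups were apart at 24 h and overlapped at 48 h. The log2 fold changes were -0.62 (SE 0.074, adjusted p = 2.01e-06) and 0.00 (adjusted p = 0.968), and the difference between them (0.62, adjusted p = 0.00056) was the highest of the members. *PSMD9* (ENSG00000110801, chr12:121888732-121918297) had 129, 96.1 and 48.1 in DMSO against 115, 77.8 and 91.8 in AZD5153 at 24 h, and 73.0, 59.4 and 58.3 against 138, 73.9 and 90.7 at 48 h. It was above all controls at 48 h but not called there (0.62, SE 0.303, adjusted p = 0.0848). That result was called by DESeq2 (0.66), under quantile normalization (0.99), in a fit of the 48-hour groups alone, without replicate 1 or 3 of DMSO at 24 h and without replicate 2 of AZD5153 at 48 h (0.81), and the lowest value without a single library was 0.37. *PSMD10* rose at 48 h (0.23), a call lost with equal totals (0.06). At 24 h it was at -0.14 and was called lower without replicate 3 of AZD5153 (-0.21), with equal totals (-0.26) and with 7 stably expressed genes (-0.18).

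The activators dock on the core in place of the regulatory particle. *PSME1* and *PSME2* encode the PA28 alpha and beta chains, which are linked to antigen processing, *PSME3* the nuclear PA28 gamma, and *PSME4* the nuclear PA200. *PSME4* (ENSG00000068878, chr2:53864069-53970993) had 3150, 2751 and 2578 normalized counts in DMSO and 6154, 5907 and 6559 in AZD5153 at 24 h. At 48 h it had 2176, 2162 and 2198 in DMSO and 5861, 5856 and 5992 in AZD5153. The lowest treated library was above the highest control by a wide gap at each time. The log2 fold change was 1.14 (SE 0.063, adjusted p = 2.08e-10) and then 1.44 (adjusted p = 1.4e-11).

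*PSME3* (ENSG00000131467, chr17:42824385-42843760) had 8565, 8978 and 8722 normalized counts in DMSO and 8814, 8567 and 9497 in AZD5153 at 24 h, which overlapped. At 48 h the DMSO libraries had 6006, 5902 and 6360 and the treated ones 9118, 9080 and 9059. Its effect was 0.03 (SE 0.047, adjusted p = 0.556) and then 0.58 (adjusted p = 1.9e-08). *PSME1* (ENSG00000092010, chr14:24136163-24138967) had 1318, 1061 and 1048 in DMSO against 1129, 1137 and 1033 in AZD5153, then 1239, 1258 and 1339 against 1189, 1220 and 1312, and it overlapped at both times, with fold changes of -0.05 and -0.04 that were not called. *PSME2* (ENSG00000100911, chr14:24143362-24147570) had 698, 716 and 843 against 599, 717 and 638, then 676, 637 and 800 against 583, 560 and 541. It was lower at 48 h (-0.32, SE 0.099, adjusted p = 0.00933) and not called at 24 h (-0.21, adjusted p = 0.0758). The 48-hour call of *PSME2* was lost without replicate 3 of DMSO (-0.23), and a 24-hour call was gained without replicate 1 of DMSO (-0.26) or replicate 2 of AZD5153 (-0.28). The gene was also called lower at 24 h with 7 stably expressed genes (-0.25) and with equal totals (-0.33).

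The change with time differed between the treatments. In DMSO 0 members were called higher by limma at 48 than at 24 h (0 by edgeR and by DESeq2, and 1 at an unadjusted p under 0.05, *PSMB10*) and 28 of the 39 were lower, 71.8%, where 16.4% of all genes tested were higher and 19.3% lower. The median log2 change of the members was -0.31, and that of all genes was 0.01. With a minimum mean of 100, 2072 of 10961 genes were higher and 3041 lower. All 8 lid genes were called lower, from *PSMD3* (-0.18, with overlapping groups) to *PSMD12* (-0.64, adjusted p = 2.2e-07), as were 5 of the 6 ATPase genes and 9 of the 15 core genes. The 11 that were not called were *PSMA1*, *PSMA2*, *PSMA6*, *PSMA7*, *PSMB7*, *PSMB10*, *PSMC1*, *PSMD4*, *PSMD9*, *PSME1* and *PSME2*. Of the 28 lower calls, 22 held in every setting tried, and *PSMB5*, *PSMD3* and *PSMD10* lost theirs without some single library. The calls of *PSMB5* and *PSMD3* were also lost under each other scaling, and that of *PSMD10* with equal totals and under quantile normalization. *PSMB1*, *PSMB4* and *PSMD13* lost theirs under quantile normalization.

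In AZD5153 the same interval gave 4 members higher (*PSMB4*, *PSMB7*, *PSMD2* and *PSMD5*) and 8 lower (*PSMA5*, *PSMB2*, *PSMC1*, *PSMC5*, *PSMD3*, *PSMD8*, *PSMD12* and *PSMD14*), beside 15.8% and 13.8% of all genes, 29.7% together, with a median of -0.09. The lower count was 13 without replicate 1 of DMSO at 24 h and scaling to 7 stably expressed genes gave 6 higher and 2 lower, where it also gave 3406 of all genes higher and 1375 lower. The higher count was 1 without replicate 3 of AZD5153 at 48 h and 2 without replicate 1 or 2 of it or replicate 2 of AZD5153 at 24 h. *PSMD14* fell in both treatments (-0.45 in DMSO and -0.40 in AZD5153), and *PSMD2* fell in DMSO (-0.39) and rose in AZD5153 (0.14, adjusted p = 0.0171), though the latter call was lost without replicate 2 at 24 h or replicate 1 or 3 at 48 h.

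**Figure D3:**
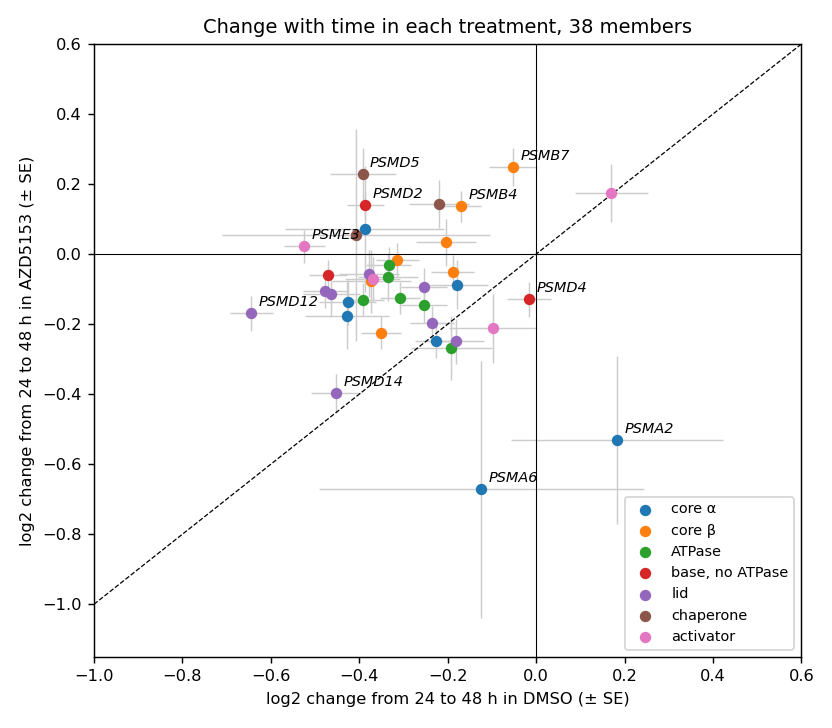
Log2 change from 24 to 48 h in DMSO (horizontal axis) and in AZD5153 (vertical axis), each ± SE of the limma fit, for 38 members coloured by role, without *PSMB10*, whose change in DMSO was 1.29 with few reads. The dashed line marks equal change in both treatments, and most members lie left of 0 and above the line.

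The test of the difference between the 2 intervals is the same as the test of whether the AZD5153 effect changed with time. It was called for 16 members, all with the effect higher at 48 h (41.0%, against 14.4% of all genes), and by limma for 0 with the effect lower (against 10.1%), which was also 0 at an unadjusted p under 0.05, by edgeR and by DESeq2. The effect is taken with its sign, so a less negative effect also counts as higher. *PSMC3* (-0.92, then -0.62) and *PSMD7* (-0.87, then -0.55) were called lower at both times. *PSMB7* (-0.37, then -0.07), *PSMD5* (-0.62, then 0.00) and *PSMD11* (-0.30, then 0.08) were called lower at 24 h only. The fitted difference was above 0 for 31 of 39 members (79.5%) and for 50.2% of all genes, and the median difference was 0.26 against 0.00. The 4 with the lowest adjusted p were *PSMD2* (0.53), *PSME3* (0.55, adjusted p = 3.2e-05), *PSMD1* (0.41, adjusted p = 0.000164) and *PSMD12* (0.48, adjusted p = 0.000174). The count was 13 under scaling to equal totals, 18 under scaling to 7 stably expressed genes and 7 under quantile normalization, where 1 member, *PSMD4*, was called with a lower effect at 48 h (-0.21). With a minimum mean of 100, 2319 of 10961 genes had a higher and 1334 a lower effect at 48 h. Over all genes tested, 2254 had a higher and 1575 a lower effect at 48 h with the deposited scaling. Equal totals gave 1760 and 1893, the 7 stably expressed genes 2820 and 1165, and quantile normalization 1761 and 1601. Without some single library *PSMA4*, *PSMD7* and *PSME4* lost their calls, with differences of 0.26 to 0.31. By role, the effect was higher at 48 h for 4 of 15 core genes, 2 of 6 ATPase genes, 6 of 11 genes of lid and base, 2 of 3 chaperones and 2 of 4 activators.

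**Figure D4:**
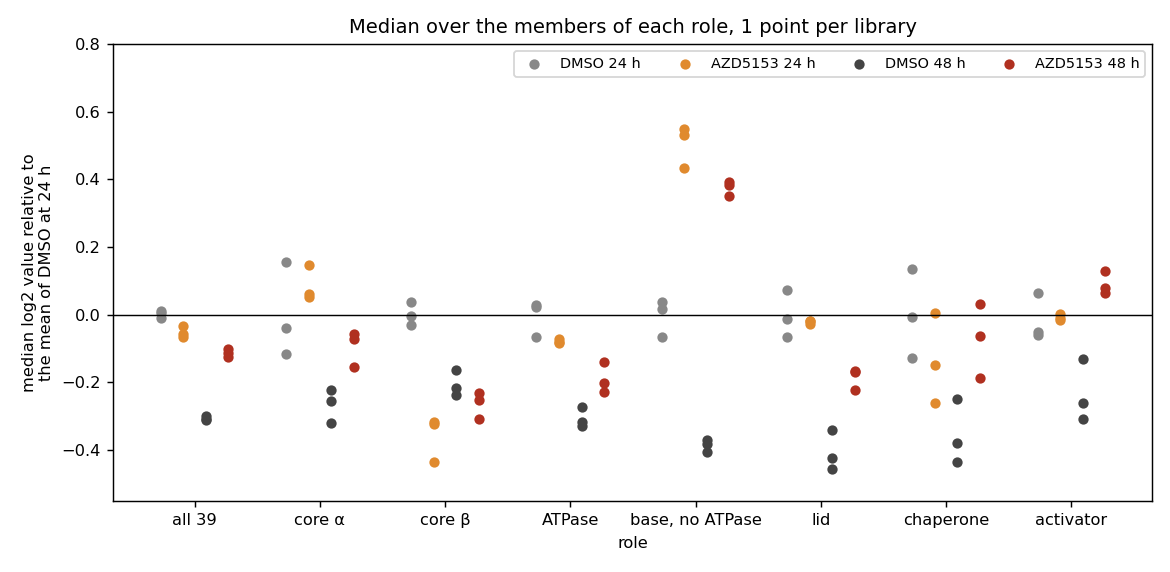
Median over the members of each role (horizontal axis) of the log2 value relative to the mean of DMSO at 24 h (vertical axis), with 1 point for each of the 12 libraries. Over all 39 members the DMSO libraries at 48 h lie between -0.31 and -0.30 and the AZD5153 libraries at 48 h between -0.12 and -0.10, and the base genes without ATPase activity are the role in which all treated libraries lie above 0.35.

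As a share of all reads on genes, which is the same as scaling to equal totals, the 39 members took 0.690 ± 0.00245% (SD, n = 3) of the DMSO and 0.706 ± 0.00532% of the AZD5153 libraries at 24 h, and 0.576 ± 0.00737% and 0.682 ± 0.00358% at 48 h. The share was thus lowest in the DMSO libraries at 48 h, and the groups did not overlap. A summed share follows the members with the most reads. *PSMD2*, the highest of them, had means of 12569 normalized counts in DMSO and 20345 in AZD5153 at 24 h. With the same scaling, 6 members were called higher and 18 lower at 24 h, so the rise in share was not one of most members. The roles moved differently within the share. The base genes without ATPase activity, *PSMD2* among them, went from 0.122 to 0.160% of reads at 24 h and from 0.100 to 0.167% at 48 h, and the activators from 0.0695 to 0.0801% and from 0.0548 to 0.0797%. Of the activators, only *PSME4* was called higher at 24 h. The beta genes took 0.159% in DMSO and 0.132% in AZD5153 at 24 h, then 0.142 and 0.135%, and the ATPase genes from 0.0854 to 0.0718% and from 0.0712 to 0.0663%.

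Levels of different genes can be compared only per length, so reads were also expressed per length of the canonical GENCODE transcript and per total reads on genes (RPKM). The median over the 12 libraries was highest for *PSMB4* (394 RPKM), *PSMB3* (305), *PSMD2* (276), *PSMB1* (248), *PSMB7* (244), *PSMD3* (232) and *PSMA7* (213). The ranges over all libraries of *PSMB1* (211 to 269) and *PSMB7* (189 to 286) overlapped, as did those of *PSMD3* and *PSMA7* with both. Their order on this length depended on the treatment. *PSMB7* had a higher mean than *PSMB1* in DMSO (271 against 237 at 24 h and 272 against 216 at 48 h). In AZD5153 it had a lower one (192 against 262, then 229 against 253). *PSMA7* and *PSMD3* also changed places, with 208 and 183 in DMSO and 234 and 315 in AZD5153 at 24 h. *PSMB4* (359 to 422) lay above *PSMB3* (284 to 356) in every library on this length, but below it with the length of all annotated exons (medians of 170 and 199). The place of *PSMD2* depended on the group, with means of 176 RPKM in DMSO and 365 in AZD5153 at 48 h, where *PSMB3* had 291 and 300.2. In the middle were most lid and ATPase genes, with role medians of 108 and 69.2 RPKM. At the low end were *PSMA1* (10.5), *PSMC1* (7.44), *PSMA2* (2.29), *PSMA6* (1.87), *PSMD9* (range 0.908 to 2.45) and *PSMB10* (0.385). The length chosen matters here. With the length of all annotated exons, the median over the 39 members was 25.2 RPKM in place of 65.7.

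The low levels of some core subunits go together with overlap in the annotation. The canonical exons of *PSMA1*, *PSMA2*, *PSMA6*, *PSMB10* and *PSMD9* lie under exons of another annotated protein-coding gene on the same strand for 67.0, 100, 81.4, 56.1 and 28.8% of their bases. These are the 5 members with over 25% of such overlap (12.8%, against 4.38% of 12757 protein-coding genes tested), and they are the 5 lowest besides *PSMC1*. The overlapping genes had mean normalized counts of 0, 0.293, 0.314, 25.6 and 0.275, in the same order. Whether reads in shared exons were left uncounted was not tested, and the counts of these 5 are uncertain. *PSMC1* has 83.2% of its exon bases under *NRDE2* on the opposite strand (mean 365), and the strand setting of the counting is not given in the sources used here. Without the 5 members, 10 of 34 were higher and 8 lower at 24 h, 20 higher and 5 lower at 48 h, and 28 lower with time in DMSO.

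**Figure D5:**
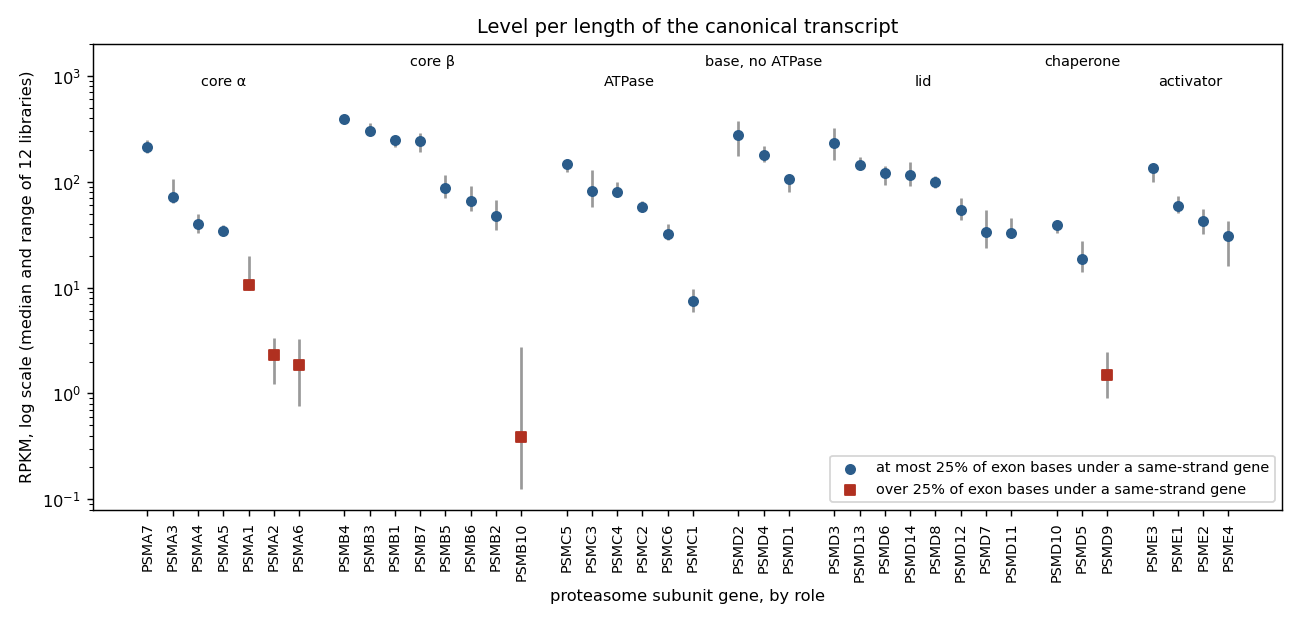
Level per length (RPKM on a log axis, median as a point and range over the 12 libraries as a line) of the 39 members, ordered by role and then by level on the horizontal axis. The 5 members marked by red squares, with over 25% of their exon bases under a gene on the same strand, lie at or below 10.5 RPKM, and *PSMC1* at 7.44 RPKM is the only other member in that range.

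The wider pathway was read from a list of 36 genes that assemble, regulate, load or supply the proteasome, all of which were tested. At 24 h 16 were higher (44.4%, against 33.9% of all genes) and 9 lower (25%, against 34.6%). At 48 h 18 were higher (50%, against 33.1%) and 10 lower (27.8%, against 33.9%). That is 69.4% and 77.8% of the list called in either direction, where 68.5% and 67% of all genes were, and the median log2 fold changes were 0.12 and 0.14. The 3 genes of the unfoldase that extracts ubiquitinated proteins were all called higher at both times, against 26% of all genes. *VCP*, its ATPase, had mean normalized counts of 4885 in DMSO and 8792 in AZD5153 at 24 h and of 3976 and 8410 at 48 h (log2 fold change 0.85 and 1.08), and its cofactor *NPLOC4* had 12330 and 19368, then 10442 and 19512 (0.65 and 0.90).

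*NFE2L1*, the transcription factor named above, went from 9360 to 13862 normalized counts at 24 h (0.57, adjusted p = 2.48e-08) and from 9648 to 11765 at 48 h (0.29, adjusted p = 5.38e-05), so that its effect was smaller at the later time (-0.28, adjusted p = 0.00614). *NGLY1*, the enzyme that removes sugars from the NFE2L1 protein, rose by 0.62 and 0.76. Of the 7 regulators in the list, 4 were higher at 24 h (57.1%, against 33.9% of all genes) and 1 lower (14.3%, against 34.6%), with a median of 0.32. At 48 h 2 were higher and 2 lower (28.6% each, near the 33.1% and 33.9% of all genes), with a median of -0.17. Over both times the lowest genes of the list were *UCHL5*, a deubiquitinase bound to the base (-0.99 and -0.50), *ECPAS*, which tethers the proteasome (-0.70 and -0.58), and *PSMG3*, a chaperone of the core (-0.69 and -0.52). *POMP*, which matures the core, was called higher by limma at both times (0.15, adjusted p = 0.0288, and 0.29, adjusted p = 0.00036). Its 24-hour value is close to the 0.12 by which scaling to equal totals lowered the median of all genes at that time. *SEM1*, the smallest lid subunit, rose at 24 h (0.48) and not at 48 h (-0.14, adjusted p = 0.38), and the ubiquitin receptor *ADRM1* was called at neither (0.06 and 0.12).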

How the data were processed

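RNA-Seq was measured in 12 libraries of SF8628 cells, 3 in each of 4 groups (DMSO or AZD5153, 24 or 48 hours), grouped by their titles. RNA was extracted with an RNeasy kit and sequenced as paired reads of 150 bases. Per the labels, the authors aligned to hg38 with STAR, counted with HTSeq and normalized with DESeq2 (versions and strand setting not given in the sources used here), and the deposited signal is the count of each gene divided by the library's size factor. Whole reads were recovered from it for 100% of values within a tolerance of 0.02 reads. All 12 value columns matched a title (0 without a sample), and 0 entries named no gene. Columns of the authors' own comparisons (fold changes, p-values) were not used.

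The members, the role and pathway lists and the tests were chosen with earlier results of these data known. Genes averaging 10 or more normalized counts were tested with limma 3.58.1 (R 4.3.3) on log2(value + 1), fitting all groups at once (8 residual degrees of freedom), and p-values were adjusted over all 15599 genes. A member was called at an adjusted p under 0.05. The members described one by one were those with the highest and lowest fold change of each role over both times, the catalytic subunits, the activators and the 4 with the lowest adjusted p for the difference between times. Of the pathway list, the 3 highest and 3 lowest of those called at both times are named, with *NFE2L1*, *POMP*, *SEM1* and *ADRM1*. Alternatives were edgeR 4.0.16 and DESeq2 1.42.0 on recovered reads, other scalings, minimums and pseudocounts, a replicate block and leaving out each library. Between DMSO and AZD5153 libraries of the same time, replicate numbers did not pair the libraries (correlations of same-numbered deviations from -0.151 to 0.036). On simulated data of 15599 genes, 200 of them changed, the limma fit recovered 79.5% of the 200 for the 24-hour comparison. For the difference between times it recovered 66.5%. In the measured libraries 68.5% of all genes were called at 24 h, a far larger part than in the simulation. These rates therefore check the fit only, and the power to detect fold changes of the size seen in the members was not tested. Depth was 15759148 to 27335220 reads on genes. Coordinates, exons and lengths are from GENCODE 44 (GRCh38), overlaps were made with bedtools 2.31.1, and promoters are from RefSeq on GRCh38.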

Additional observations from a re-analysis of the deposited data

Results flagged for a closer look

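The AZD5153 effect differed between 24 and 48 hours by the interaction term of the limma fit for 16 subunit genes, each with the effect higher at 48 hours. For *PSMC3* and *PSMD7* this was a less negative effect at 48 hours. *PSMB7*, *PSMD5* and *PSMD11* were called lower with AZD5153 at 24 hours and not called at 48 hours. On the log2 scale, the differences of the base and lid genes were 0.53 for *PSMD2*, 0.41 for *PSMD1*, 0.48 for *PSMD12*, 0.38 for *PSMD11*, 0.35 for *PSMD6* and 0.32 for *PSMD7*. Those of the chaperones were 0.62 for *PSMD5* and 0.36 for *PSMD10*, and those of the activators 0.55 for *PSME3* and 0.30 for *PSME4*. The ATPase genes *PSMC3* and *PSMC4* differed by 0.30 and 0.26, and the core genes *PSMA4*, *PSMB3*, *PSMB4* and *PSMB7* by 0.29, 0.30, 0.31 and 0.30. Adjusted p ran from 1.3e-05 for *PSMD2* to 0.0301 for *PSMA4*, and 7 of the 16 calls held in every setting tried (*PSMD1*, *PSMD2*, *PSMD5*, *PSMD10*, *PSMD11*, *PSMD12* and *PSME3*). With 3 libraries per group, single libraries were not screened as outliers.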

How the results depend on the processing

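Scaling to equal totals gave 6 higher and 18 lower at 24 hours (median -0.17), 13 higher and 12 lower at 48 hours (median 0.003) and 1 higher with time in DMSO. Quantile normalization gave 7 members with a higher and 1 with a lower effect at 48 than at 24 hours, a median of 0.065 at 48 hours and 1 member higher with time in DMSO. Scaling to 7 stably expressed genes gave medians of -0.094 and 0.20 and 2 members lower with time in AZD5153, and edgeR gave medians of -0.033 and 0.16. A pseudocount of 10 gave 1 member higher with time in DMSO, no minimum mean gave 1 higher with time in AZD5153, and moderation without a trend gave 1 higher and 5 lower there. Leaving out 1 library at a time gave medians of -0.082 to 0.016 at 24 hours and 0.17 to 0.19 at 48 hours, counts of 9 to 12 higher and 8 to 12 lower at 24 hours and 19 to 23 higher and 5 to 8 lower at 48 hours, 13 to 19 with a higher and 0 with a lower effect at 48 hours, 0 to 1 higher and 25 to 30 lower with time in DMSO, and 1 to 5 higher and 6 to 13 lower with time in AZD5153. Leaving out replicate 1 of DMSO at 24 hours gave the upper end of most of these ranges: a median of 0.016 with 12 higher and 12 lower at 24 hours, 23 higher at 48 hours, 19 with a higher effect at 48 hours, 1 higher and 30 lower with time in DMSO, and 5 higher and 13 lower with time in AZD5153. The cause was not tested. With the replicate block, which is a shared number only, 10 members were higher and 8 lower at 24 hours, 21 and 7 at 48 hours, 16 had a higher and 0 a lower effect at 48 hours, 0 and 28 were higher and lower with time in DMSO, and 3 and 7 in AZD5153, where *PSMD5* (adjusted p = 0.0515) and *PSMC5* (adjusted p = 0.0721) lost their calls, and *PSMD9* was called higher at 48 hours (adjusted p = 0.0349). Among members called at 24 or 48 hours, *PSMC4* (equal totals) and *PSMD13* (equal totals and quantile normalization) went from a call of higher at 48 hours to values just below 0 that were not called. Depth limits *PSMB10*, *PSMA6*, *PSMA2* and *PSMD9*, where *PSMB10* had 3 to 56 and *PSMA6* 18 to 57 reads per library.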
